A study of Mus musculus with 19 samples.

Results

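The comparison described here sets mammary luminal cells (LCs) of C451A-ERα mice against those of wild-type (WT) mice after treatment with 17β-estradiol and progesterone (E2+Pg). Its members are the 10 arrays whose labels give this treatment, 5 from C451A-ERα mice and 5 from WT mice, out of 19 arrays in the series. The other 9 arrays come from mice that received E2 alone, 4 WT and 5 C451A-ERα. The question it addresses is which genes of LCs under both hormones differ in signal when ERα cannot be anchored at the plasma membrane. All mice of the series received E2, so a difference is not shown to be a response to the hormones.

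All mice were ovariectomized C57Bl/6N females, operated at 24 days of age by the labels (26 days by the study's methods). A pellet was given 10 days later and released 0.01 mg E2 over 60 days, with 1.5 mg Pg in the E2+Pg mice only. LCs were collected after 21 days of treatment, and the labels give an age of 8 weeks for all mice. The C451A mutation replaces the cysteine of ERα that carries its lipid anchor. It is carried in every cell of the mouse, so the stroma, the pituitary and other tissues around the LCs have it too. LCs were sorted as CD24+CD29lo cells after exclusion of cells with CD45 or CD31, and RNA of each mouse was hybridized to 1 single-colour Agilent array. WT mice were L57, L62, L44, L47 and L21, and C451A-ERα mice were L56, L18, L61, L53 and L63, in the order of slides 1 to 5. Each slide carried 1 mouse of each genotype under E2+Pg.

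ERα works as a transcription factor in the nucleus, and a smaller pool, held at the plasma membrane by palmitoylation, signals through kinases. In the mammary epithelium a share of the LCs carries ERα and the progesterone receptor and senses the hormones. These cells pass the signal to neighbouring luminal and basal cells through secreted factors such as amphiregulin, RANKL and Wnt4. Progesterone acting on a gland primed with estradiol makes the epithelium divide and branch.

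Values are normalized log2 signals of the brightest probe of a gene, so that a difference of 1 is a doubling of signal. Of 20665 genes tested with limma, 1 was called (0.00484%). To be called, a gene had to differ by more than 1.5-fold with a p below 0.05 after Benjamini-Hochberg adjustment. That gene, Asic2, was lower in C451A-ERα LCs, and no gene was called higher. Before adjustment, p was below 0.05 for 2140 genes with lower signal (10.4% of those tested) and 1646 with higher signal (7.97%). The values of the 5 mice of each genotype did not overlap for 351 genes that were lower (1.7%) and 187 that were higher (0.905%). The median log2 fold change over all genes was -0.03. All p-values of single genes below come from limma or from a two-sided exact permutation test, which cannot give less than p = 0.00794 with 5 against 5 mice.

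Single mice set how many genes were called. Without C451A-ERα mouse L18, 791 genes were called lower (3.83%) and 305 higher (1.48%). Without WT mouse L21, 187 genes were called lower (0.905%) and 45 higher (0.218%). Without any one of the other 8 mice, Asic2 remained the only gene called. The calls without L18 and those without L21 shared 171 genes, which is 15.6% of the former and 73.7% of the latter, 150 of them lower and 21 higher. Across all genes the array of L18 had a Pearson r of 0.9879 with the mean of the WT mice and of 0.9669 with the mean of the other C451A-ERα mice. Each of the other 9 mice had the higher r with its own genotype, and for L21 the difference was small (0.978 against 0.9768). The array cannot read the mutated base, and the labels were kept for all mice.

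**Figure D1:**
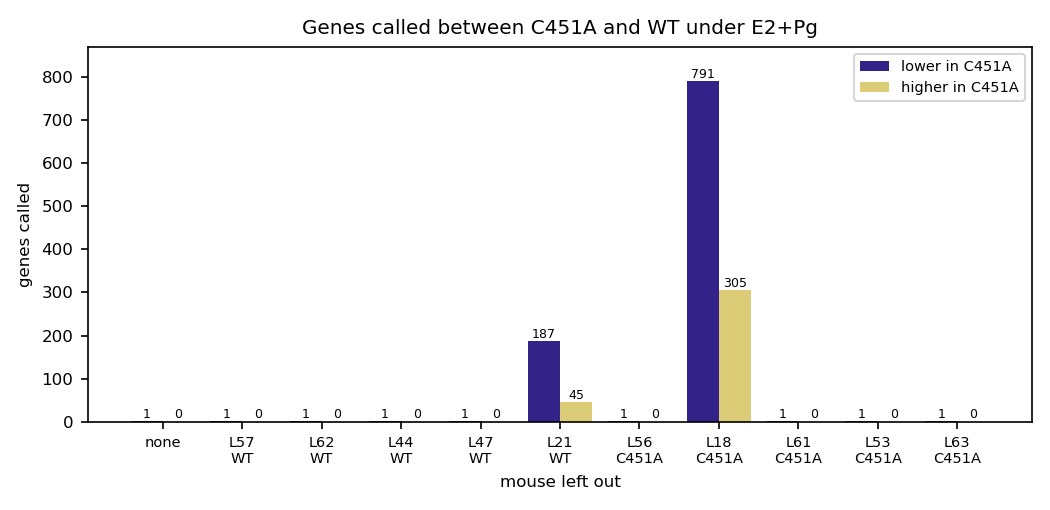
Number of genes called (y axis) between C451A-ERα and WT LCs under E2+Pg when no mouse or 1 mouse (x axis) was left out of the limma fit, with bars for genes lower and higher in C451A-ERα. The bars reach 791 and 305 without L18 and 187 and 45 without L21, and stand at 1 and 0 without any other mouse.

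Markers of luminal cells were bright in all mice. The 10 pan-luminal markers, keratins 8, 18 and 19 among them, were well above background on all 10 arrays, with mean log2 signals of 14.36 to 14.59 in WT and 14.22 to 14.78 in C451A-ERα mice. Markers of other cells were not absent. All 15 basal and myoepithelial markers were well above background on all 10 arrays, with mean log2 signals of 9.57 to 9.99 in WT and 9.22 to 10.43 in C451A-ERα mice, the highest in L18. Of 11 immune markers, 8 were well above background on all 10 arrays, and Ptprc, the gene of the CD45 used to exclude cells, lay between 8.13 and 10.57. WT mouse L21 stood apart in the 8 markers of skeletal muscle and nerve, with a mean deviation of 2.31 from the mean of the 10 mice, while the other WT mice lay between -1.14 and -0.31 and the C451A-ERα mice between -0.78 and 1.11. The muscle actin Acta1 had a log2 signal of 13.87 in L21. In such RNA of mixed cells, fewer cells of a type and less RNA per cell cannot be told apart.

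Asic2 encodes a proton-gated sodium channel and was read by a probe on chromosome 11 of mm9, 80693797 to 80693856. Its log2 signal was 7.55, 7.50, 7.02, 7.16 and 8.16 in the WT mice and 5.18, 5.84, 5.51, 5.35 and 6.16 in the C451A-ERα mice. Both groups were tight, and L18 and L21 lay with their own genotype. The mean was 7.48 ± 0.44 (SD, n = 5) in WT and 5.61 ± 0.40 (n = 5) in C451A-ERα LCs, 3.66-fold lower (log2 fold change -1.87, standard error 0.22, limma adjusted p = 0.00217). The exact permutation test gave its smallest possible p of 0.00794. Within slides the difference lay between -2.38 and -1.52, and its equal sign on every slide follows from the lack of overlap. The probe was well above background on all 5 WT arrays and on 3 of 5 C451A-ERα arrays. With the scanner's background-subtracted signal the log2 fold change was -2.77 and the limma adjusted p was 0.0972, so that the call was lost. With only the 10 arrays in the fit, 6 genes were called (0.029%), all lower, with limma adjusted p-values of 0.0429 to 0.0466. These were Asic2 and, named after their values were seen, Fgf14, Gm20744, Mas1, Pate11 and Sprr2f. Where only probes well above background on all arrays were used, Asic2 was not among the genes tested and no gene was called.

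Not counting Asic2, 160 genes with a lower mean and 32 with a higher mean in C451A-ERα LCs had a symbol in the reference, a fold change above 1.5, no overlap between the genotypes and a probe well above background on all 5 arrays of at least 1 group. The 12 of the former with the lowest p had limma adjusted p-values between 0.0957 and 0.103, so none was called. With the authors' deposited values and all mice, 24 genes were called lower over all genes. All of the 12 but Calml4, which those values lack, were among them (limma adjusted p = 0.0398 to 0.0498). All 12 were also called when L18 or L21 was left out alone, where 3.83% and 0.905% of all genes were called lower. The 12 were chosen for their lowest p on these same arrays, so neither result is independent support for them.

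Pcp4, a small protein that binds calmodulin, differed most of these 12. Its log2 signal was 14.85, 14.10, 13.65, 13.99 and 13.13 in WT mice and 7.59, 12.24, 9.33, 9.26 and 7.45 in C451A-ERα mice, where the second value is that of L18. The C451A-ERα mice were spread over a wider range than WT mice, and only L18 came near to them. The log2 fold change was -4.77 (standard error 0.86, limma adjusted p = 0.0957), or 27.2-fold, and -5.53 without L18.

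Sh3gl3, an endophilin that bends membranes in endocytosis, had 8.82, 8.28, 8.40, 8.69 and 6.98 in WT mice and 5.11, 6.97, 5.45, 5.77 and 5.00 in C451A-ERα mice. L21 and L18 met at nearly 1 level, and the other 8 mice were far apart. This gave a log2 fold change of -2.57 (standard error 0.43, limma adjusted p = 0.0957). The probe was well above background on 3 of 5 C451A-ERα arrays, and the background-subtracted signal gave -3.90.

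Dkkl1, a secreted protein related to the Dickkopf Wnt antagonists, had 13.76, 13.56, 13.18, 13.80 and 12.67 in WT mice and 11.57, 11.89, 11.93, 12.61 and 11.48 in C451A-ERα mice. Here L18 lay in the middle of its own group, and L21 was the lowest WT mouse. The difference of means was -1.50 on the log2 scale (standard error 0.27, limma adjusted p = 0.0957).

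The other lower genes of this set spanned several functions. Slc12a4, a potassium-chloride cotransporter, had a log2 fold change of -1.65, and Ggt1, which splits extracellular glutathione, one of -1.48. Gusb, the lysosomal β-glucuronidase, was at -1.01, and Il2rb, a receptor chain shared by interleukins 2 and 15, at -0.92. The calmodulin-like Calml4 was at -0.88 and the membrane protein Ctxn1 at -1.16. The others were 3830417A13Rik (-1.97) and Vmn1r32 (-1.74), a member of a large family of vomeronasal receptors whose probe may also read close copies. On the C451A-ERα arrays the probes of Vmn1r32 and Calml4 were well above background on only 1 and 2 of 5, and their background-subtracted signals gave -3.56 and -2.15. Stc2 is described with the estrogen receptor targets.

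**Figure D2:**
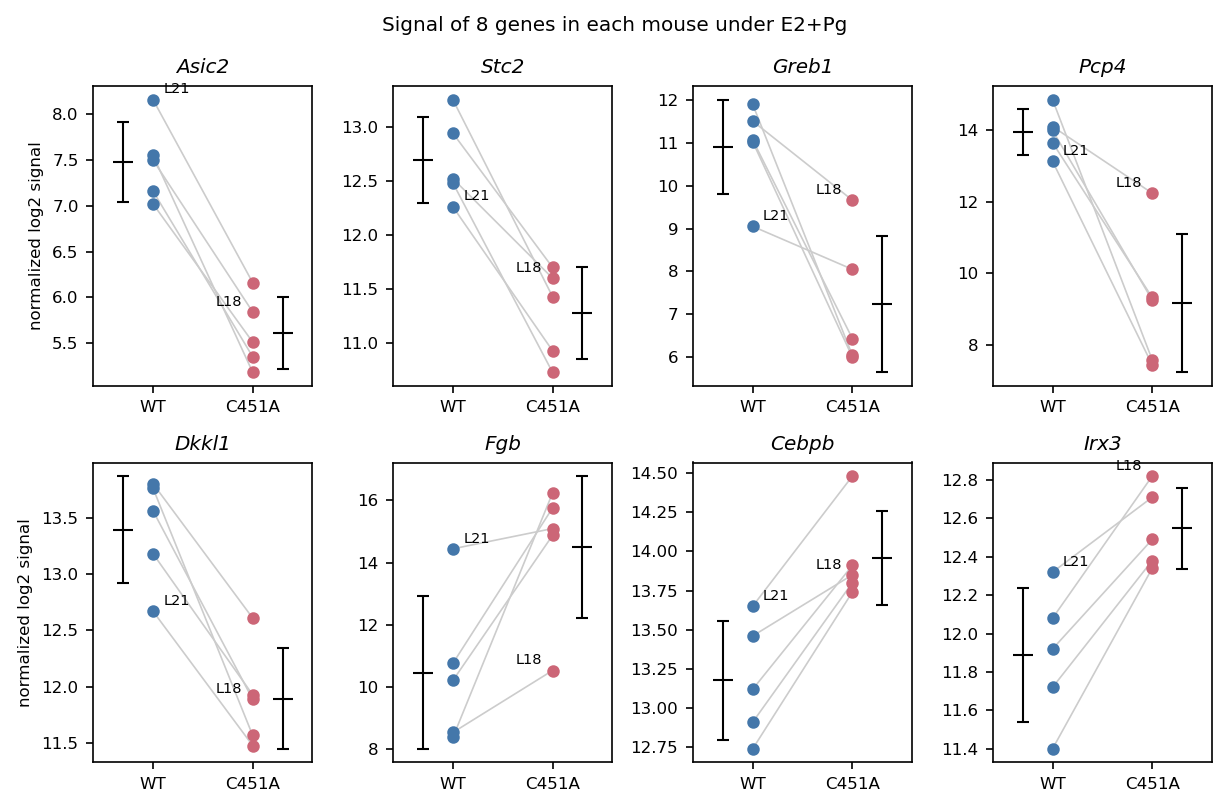
Normalized log2 signal (y axis) of 8 genes in each WT and C451A-ERα mouse (points) under E2+Pg, with grey lines between the mice of a slide and the mean ± SD beside each group (n = 5). L18 and L21 are named, and in Greb1 (9.66 and 9.05) and Fgb (10.53 and 14.44) they lie away from the other mice of their genotype.

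The 10 genes with a higher mean that the same rule took had log2 fold changes between 0.60 and 0.85 and limma adjusted p-values between 0.103 and 0.119. Of these, 5 were called without L18 and also without L21, where 1.48% and 0.218% of all genes were called higher. With the authors' deposited values and all mice, 2 genes were called higher, Snhg15 and Pknox1 (limma adjusted p = 0.0498 each). The 10 genes were chosen on these same arrays, so neither result is independent support for them.

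Cebpb, a transcription factor of alveolar development and a known target of the progesterone receptor, had 12.74, 13.46, 13.12, 12.91 and 13.65 in WT mice and 13.74, 13.85, 13.91, 13.80 and 14.48 in C451A-ERα mice. The lowest C451A-ERα mouse thus lay just above the highest WT mouse, L21. Its log2 fold change was 0.78 (standard error 0.21, limma adjusted p = 0.118).

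Irx3, a homeobox transcription factor, had 11.72, 12.08, 11.92, 11.40 and 12.32 in WT mice and 12.38, 12.82, 12.49, 12.34 and 12.71 in C451A-ERα mice. Again L21 was the WT mouse nearest to the other genotype. Between the genotypes the log2 fold change was 0.66 (standard error 0.15, limma adjusted p = 0.11).

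Of the remaining 8, Snhg15, a host gene of small nucleolar RNAs, had a log2 fold change of 0.84, Sik1, a kinase induced by cAMP, one of 0.78, and Lonrf3 one of 0.85. The homeobox gene Pknox1 was at 0.63 and Prkar2a, a regulatory subunit of protein kinase A, at 0.60. The last ones were 1700012D14Rik (0.71), 2410002F23Rik (0.64) and Gm5785 (0.61). The probe of 1700012D14Rik was well above background on 3 of 5 WT arrays, and its background-subtracted signal gave 1.58.

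**Figure D3:**
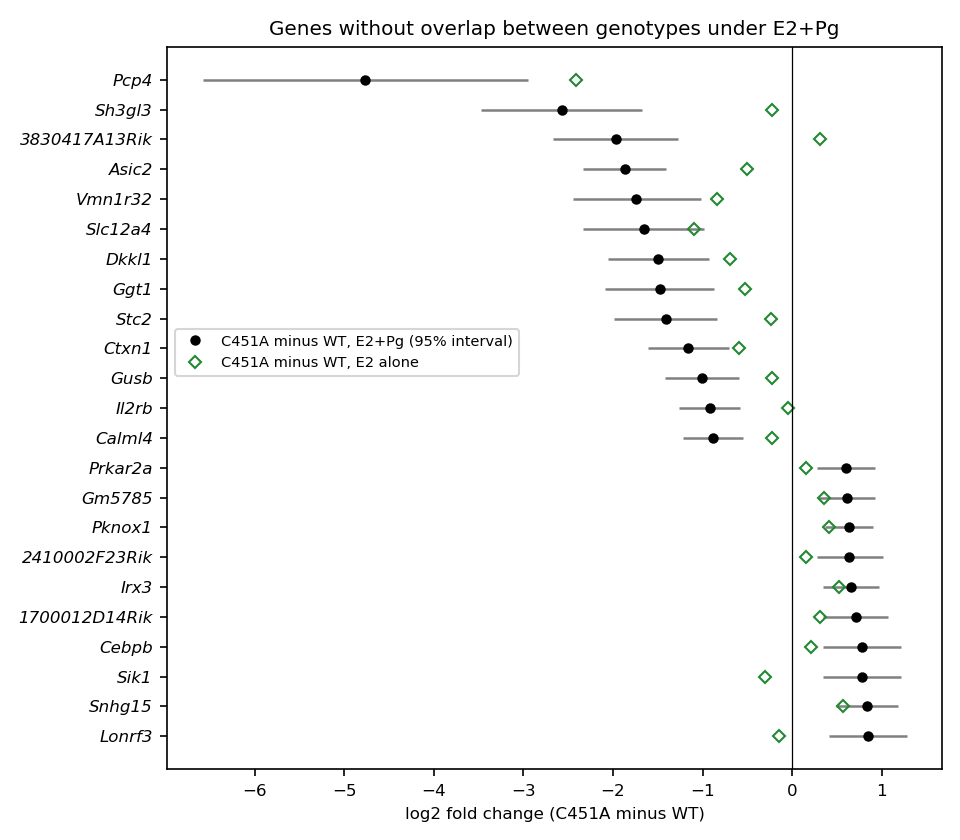
Log2 fold change between C451A-ERα and WT LCs (x axis) for Asic2 and the 22 genes named for a fold change above 1.5 without overlap (y axis), with the 95% interval of the limma fit under E2+Pg (points and lines) and the value under E2 alone (open diamonds). Asic2 was at -1.87 under E2+Pg and at -0.50 under E2.

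The same comparison in mice on E2 alone gave smaller differences for most of these genes. Asic2 had a log2 fold change of -0.50 there, Sh3gl3 one of -0.23, 3830417A13Rik one of 0.31 and Sik1 one of -0.30. The difference between both comparisons was tested as the interaction of genotype and Pg, which was called for no gene in limma (lowest adjusted p = 0.471, 1938 genes at an unadjusted p under 0.05). For Asic2 it was -1.37 (standard error 0.32, limma adjusted p = 0.471). It is therefore not shown that these genes differed more under E2+Pg than under E2. Among genes described below, some had a like difference under both treatments. The log2 fold change under E2 was -3.65 for Greb1, -2.86 for Klk6, -2.45 for Ccn5 and -2.28 for Cxcl15, beside -3.66, -2.65, -2.21 and -2.39 under E2+Pg. For Il33 and Tnfsf11 it was -0.09 and -0.01 under E2, beside -2.26 and -1.11 under E2+Pg.

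Genes activated by ERα differed in both directions. Of 30 listed estrogen receptor targets, 27 were tested, of which 7 were lower (25.9%) and 9 were higher (33.3%) at an unadjusted p under 0.05, against 10.4% and 7.97% of all genes. Their median log2 fold change was 0.06, and none was called.

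Stc2, a secreted glycoprotein induced by estradiol, had 13.25, 12.52, 12.48, 12.94 and 12.26 in WT mice and 11.43, 11.60, 10.73, 11.70 and 10.93 in C451A-ERα mice. The genotypes did not overlap and neither L18 nor L21 stood apart. The log2 fold change was -1.41 (standard error 0.27, limma adjusted p = 0.103).

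Greb1 encodes a cofactor of ERα, and its probe lies on chromosome 12 of mm9, 16678455 to 16678514. It had 11.89, 11.50, 11.06, 11.02 and 9.05 in WT mice and 6.05, 9.66, 6.44, 6.01 and 8.05 in C451A-ERα mice. L18 lay above L21, and the other 8 mice did not overlap. This gave a log2 fold change of -3.66 (standard error 0.94, limma adjusted p = 0.113, exact permutation p = 0.0159), or 12.6-fold. It was -4.26 without L18 (limma adjusted p = 0.033) and -4.12 without L21 (limma adjusted p = 0.0467).

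The 250 bases before the first listed start of Greb1 are shown to let the letters of an estrogen response element be looked for, on GRCm38.p6 and from RefSeq. Capitals mark GGTCA, one arm of that element, on either strand.
Greb1, chr12:16800887-16801136, minus strand: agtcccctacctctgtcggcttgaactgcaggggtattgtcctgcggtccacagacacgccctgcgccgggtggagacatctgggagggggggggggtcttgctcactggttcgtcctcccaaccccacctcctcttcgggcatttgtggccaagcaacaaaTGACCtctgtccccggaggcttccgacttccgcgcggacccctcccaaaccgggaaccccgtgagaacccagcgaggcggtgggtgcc
The arm occurs 1 time, 88 bases before the start, and the full palindrome, GGTCA then NNN then TGACC, has no match in this window. Of all promoters of this length 35.2% hold the arm and 0.0639% the palindrome, which contains it. Of the 25 promoters of 18 estrogen receptor targets, 7 hold the arm (28.0%) and 0 the palindrome.

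Other lower targets included Ccn5, a matricellular protein of the CCN family (log2 fold change -2.21, standard error 0.59), and Ctsd, the lysosomal protease cathepsin D (-0.51, standard error 0.15). Among those with a higher mean, named after their values were seen, were Cited1, a coactivator of ERα (1.39), the proto-oncogene Myc (0.48), Nrip1, a corepressor of nuclear receptors (0.48), and Rara, the retinoic acid receptor α (0.78). Cited1 lay at 12.85, 12.53, 13.11, 13.52 and 14.93 in WT mice and at 15.37, 13.39, 14.48, 15.45 and 15.18 in C451A-ERα mice. L21 and L18 again lay within the range of the other genotype.

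Of 12 receptors of steroid and pituitary hormones tested, 2 were lower and 2 were higher at an unadjusted p under 0.05 (16.7% each). Over all genes these shares were 10.4% and 7.97%. Pgr, the progesterone receptor, had 10.85, 10.46, 10.38, 10.53 and 10.29 in WT mice and 9.95, 10.13, 9.24, 10.32 and 9.73 in C451A-ERα mice, and only the C451A-ERα mouse L53 exceeded a WT mouse. Its log2 fold change was -0.63 (standard error 0.25, limma adjusted p = 0.218, exact permutation p = 0.0159). Nr3c2, the mineralocorticoid receptor, was at 1.12 (limma adjusted p = 0.177) and Igf1r at 0.31. Esr1 itself lay at 9.37 to 9.89 in WT mice and at 9.26 to 11.52 in C451A-ERα mice, highest in L63, with a log2 fold change of 0.46 (standard error 0.32, limma adjusted p = 0.418). The Esr1 probe measures the amount of transcript and checks nothing about the mutation.

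Targets of the progesterone receptor also went both ways. Of 20 tested, 3 were lower and 3 were higher at an unadjusted p under 0.05, with a median log2 fold change of 0.09. Of all genes, 10.4% were lower and 7.97% were higher at that threshold, so these small counts were not far from the background. Per1, a clock gene induced by steroids, was at 1.03 (standard error 0.33) and Cxcl12, a chemokine, at -1.48 (standard error 0.47).

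Tnfsf11 encodes RANKL, the factor by which progesterone-sensing cells make their neighbours divide. It had 7.08, 6.21, 7.04, 5.13 and 7.70 in WT mice and 4.53, 7.57, 5.81, 5.01 and 4.69 in C451A-ERα mice. L18 was at the level of the highest WT mouse and WT mouse L47 at that of the C451A-ERα mice. The difference of means was -1.11 on the log2 scale (standard error 0.50, limma adjusted p = 0.258, exact permutation p = 0.159), and the limma adjusted p was 0.0387 without L18. The probe was well above background on 4 WT and 2 C451A-ERα arrays, and the background-subtracted signal gave -2.24.

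Wnt4, another paracrine mediator of progesterone, was at 0.27 (standard error 0.34, limma adjusted p = 0.664), and Areg, the ERα-induced EGF receptor ligand amphiregulin, at 0.20 (standard error 0.36, limma adjusted p = 0.771). For Areg the values of both genotypes overlapped widely, at 11.65 to 12.87 and 11.34 to 13.55. Stat5a, which carries prolactin signals, was at 0.15 (standard error 0.24).

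Among growth factors and their receptors no gene was called. In TGFβ, activin and BMP signaling, 6 of 40 genes were lower and 5 were higher at an unadjusted p under 0.05. These counts were not far from the background, as 10.4% of all genes were lower and 7.97% were higher. Bmp3, a BMP that antagonizes other BMPs, had 10.28, 9.38, 8.61, 8.93 and 8.78 in WT mice and 6.64, 8.52, 7.03, 8.18 and 5.05 in C451A-ERα mice. The genotypes did not overlap, and L18 was the C451A-ERα mouse nearest to WT. Its log2 fold change was -2.11 (standard error 0.54, limma adjusted p = 0.113). Tgfb1 was at -0.77 (standard error 0.20, limma adjusted p = 0.118), also without overlap. The receptor Bmpr1b was at -1.28 and the secreted Fstl1 at -1.47, whereas Tgfb3 (-0.63) and Bmp1, a protease that processes collagens (-0.29), had limma adjusted p-values of 0.399 and 0.355.

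At the same threshold, 2 of 16 genes of the EGF family were lower and 2 were higher (12.5% each). The shares over all genes were 10.4% and 7.97%. The ligand Epgn was at -1.04 and the receptor Erbb3 at -0.49, and Egfr was at 0.43. Errfi1, an inhibitor of EGFR, had a 2-fold higher mean (limma adjusted p = 0.206). In the FGF family 1 of 16 was lower (6.25%) and 4 were higher (25.0%). Fgf1 had 9.13, 9.21, 9.18, 9.20 and 9.43 in WT mice and 10.96, 9.54, 10.06, 10.02 and 11.26 in C451A-ERα mice, so that the WT mice were nearly alike and the C451A-ERα mice were all above them. Between the genotypes the log2 fold change was 1.13 (standard error 0.31, limma adjusted p = 0.121). Of genes that FGF signals induce, the transcription factor Etv4 was at -1.05 without overlap, and the feedback inhibitors Dusp6 and Spred1 were at 0.52 and 0.23. Fgfr3 was at 0.22 (limma adjusted p = 0.518).

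Of 38 Wnt genes 2 were lower and 2 were higher (5.26% each), below the shares over all genes. Dkk3, a secreted protein of the Dickkopf family, had 13.25, 12.60, 12.20, 12.72 and 11.67 in WT mice and 7.92, 12.00, 9.16, 9.24 and 7.71 in C451A-ERα mice. L18 lay within the WT range and the other C451A-ERα mice lay far below it. The log2 fold change was -3.28 (standard error 0.85, limma adjusted p = 0.116), and without L18 it was -3.98 (limma adjusted p = 0.0248). The receptor Fzd2 was at -1.41 without overlap, the ligand Wnt5b at 0.44 and the ligase Rnf43, which removes Wnt receptors, at 0.67.

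At an unadjusted p under 0.05, which 10.4% of all genes passed as lower and 7.97% as higher, 7 of 39 cytokines and chemokines were lower (17.9%) and 2 were higher, with a median log2 fold change of -0.20. In the matrix and basement membrane these were 8 of 53 (15.1%) and 2, but the median was 0.00, with 26 of 53 negative. Of 33 metalloproteases and inhibitors 7 were lower (21.2%) and 1 was higher (median -0.11), and of 47 serine proteases and serpins 11 were lower (23.4%) and 3 were higher (median -0.18). None of these genes was called.

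Il18, an interleukin of epithelia, had 8.34, 8.19, 8.11, 8.13 and 7.19 in WT mice and 6.51, 6.66, 6.43, 6.60 and 5.95 in C451A-ERα mice. L21 was the lowest WT mouse but remained above all C451A-ERα mice, and L18 lay with its group. This gave a log2 fold change of -1.56 (standard error 0.42, limma adjusted p = 0.118). Il33, an alarmin, was at -2.26 (standard error 0.57, limma adjusted p = 0.113) and the chemokine Cxcl15 at -2.39 (standard error 0.67). L18 lay at 11.03 for Il33, within the WT range of 9.47 to 11.97.

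In the matrix, Col6a3, a chain of collagen VI, was at -2.23 (standard error 0.54, limma adjusted p = 0.11), with 10.36 to 12.36 in WT and 8.09 to 9.84 in C451A-ERα mice. Its partner chain Col6a1 was at -1.15, and the laminin chains Lamc1 and Lamb3 of the basement membrane at -1.10 and -0.95. Fn1, fibronectin, was at -0.52 with a limma adjusted p of 0.59. The 10 fibroblast markers had mean log2 signals of 8.94 to 10.18 in WT and 9.15 to 10.34 in C451A-ERα mice, and 0 of the 10 was past an unadjusted p of 0.05. Their part in the collagen values was not tested.

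Klk6, a secreted kallikrein protease, had 9.09, 9.0, 8.46, 9.27 and 6.27 in WT mice and 5.54, 5.02, 6.17, 5.58 and 6.53 in C451A-ERα mice. The 4 other WT mice lay far above the C451A-ERα mice, and L21 lay among them. The difference of means was -2.65 on the log2 scale (standard error 0.55, limma adjusted p = 0.108), and the limma adjusted p was 0.00648 without L21. Pcsk1, a convertase that activates prohormones, was at -1.79 (standard error 0.38, limma adjusted p = 0.108), without overlap, but its probe was well above background on only 1 C451A-ERα array. The membrane protease Tmprss6 was at -2.16 and the secreted Htra1 at -2.23. Among the metalloproteases, Mmp7 was at -0.75, Mmp23 at -0.77, Mmp14, which is held at the membrane, at -0.46 and Mmp10 at -2.15, with limma adjusted p-values between 0.132 and 0.172. Mmp7 and Mmp10 were each well above background on 4 WT arrays and 1 C451A-ERα array, and Mmp9 had no probe that passed the filter.

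The fibrinogen genes differed in the opposite direction. Fgb, the β chain of fibrinogen, was read on chromosome 3 of mm9, 82846334 to 82846393. It had 8.38, 8.54, 10.21, 10.76 and 14.44 in WT mice and 16.23, 10.53, 14.87, 15.75 and 15.09 in C451A-ERα mice. Apart from L21 and L18, the WT mice lay between 8.38 and 10.76 and the C451A-ERα mice between 14.87 and 16.23. L21 lay just below the latter and L18 among the former. Its log2 fold change was 4.03 (standard error 1.16, limma adjusted p = 0.138, exact permutation p = 0.0238), or 16.3-fold. It was 5.02 without L18 and 5.02 without L21 (limma adjusted p of 0.0307 and 0.0287). Fgg, the γ chain, followed it at 3.63 (standard error 1.08), with L21 at 13.05 and L18 at 9.93, and at 4.60 without L18 and 4.34 without L21. The α chain Fga was not tested, and the fibrinogen-like Fgl1 and Fgl2, at 0.35 and 0.26, did not pass, and Fgl1 was at -0.52 as the mean of all its probes.

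In the list that holds Asic2, of acid-sensing, epithelial sodium and CLCA channels, 5 of 10 genes tested had a negative log2 fold change, with a median of 0.04. At an unadjusted p under 0.05, 2 were lower (20.0%, against 10.4% of all genes), Asic2 and Clca1. Clca1 encodes a secreted protein that modulates chloride channels, and had 9.93, 9.93, 9.89, 10.16 and 8.33 in WT mice and 8.49, 8.07, 8.04, 8.57 and 8.37 in C451A-ERα mice. The 4 WT mice other than L21 were tight and lay above all C451A-ERα mice. Between the genotypes the log2 fold change was -1.34 (standard error 0.30, limma adjusted p = 0.11, and 0.00648 without L21). Its paralog Clca3a1 was at 0.60 and Scnn1a, a subunit of the epithelial sodium channel, at 0.73, neither past an unadjusted p of 0.05.

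Of 30 genes of the cornified envelope, 16 had a negative log2 fold change, with a median of -0.06 and none called. At an unadjusted p under 0.05, 6 were lower (20.0%, against 10.4% of all genes) and 1 was higher (3.33%, against 7.97%). Lor, loricrin, was at -1.67 and Gsdma, a gasdermin of skin, at -1.47, with limma adjusted p-values of 0.108 and 0.103. Krt79 was at -1.58 (-2.17 without L21). Ivl, involucrin, was well above background on 3 WT arrays and no C451A-ERα array. Set against the detection limit of the C451A-ERα arrays, its WT mean was 1.3-fold higher, without allowance for the spread. Its log2 fold change was -0.69 (limma adjusted p = 0.24), and WT mouse L21 (4.34) lay below all C451A-ERα mice. Of 7 epidermis markers, Lor and Ivl among them, 3 were lower at an unadjusted p under 0.05. Their mean log2 signal was 6.49 to 7.73 in WT and 6.21 to 8.06 in C451A-ERα mice, with L18 highest, and their part in these values was not tested. Krt15, a basal keratin, was the third of them, with means of 12.61 in WT and 9.71 in C451A-ERα mice. Krt10, a keratin of differentiated epidermis, had means of 8.41 and 8.61, and Krtdap of 6.51 and 6.96.

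**Figure D4:**
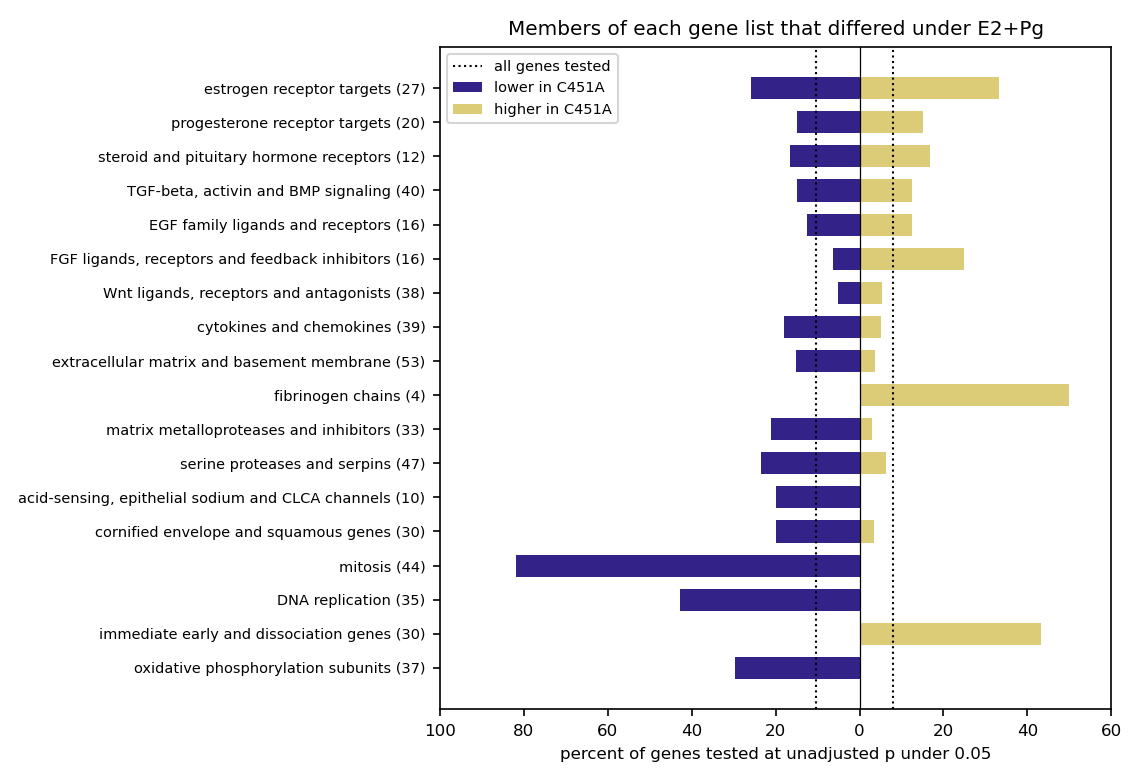
Percent of the genes tested in each list (y axis, number of genes in brackets) that were lower (left) or higher (right) in C451A-ERα LCs under E2+Pg at an unadjusted p under 0.05 (x axis), with the shares over all genes, 10.4% and 7.97%, as dotted lines. The longest bars are those of mitosis (36 of 44 lower), fibrinogen chains (2 of 4 higher), immediate early genes (13 of 30 higher) and DNA replication (15 of 35 lower).

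Genes of cell division had a lower mean in C451A-ERα LCs more often than those of any other list examined. Of 44 genes of mitosis, all had a negative log2 fold change, between -2.04 and -0.39, with a median of -1.48, and 36 were lower at an unadjusted p under 0.05 (81.8%). None was called with all mice. Without L18, 35 of the 44 were called lower, and without L21 none was. Of all genes, 10.4% were lower at that unadjusted p, and 3.83% and 0.905% were called lower without L18 and without L21.

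Ube2c, which marks mitotic proteins for destruction, had 11.17, 10.85, 11.29, 11.61 and 11.50 in WT mice and 8.71, 11.24, 9.43, 10.60 and 7.10 in C451A-ERα mice. The WT mice were close to each other, L18 lay among them, and L63 lay far below the rest. The log2 fold change was -1.87 (standard error 0.62, limma adjusted p = 0.177). Anln, a scaffold of the ring that parts daughter cells, was at -1.33, the spindle motor Kif11 at -1.28, and the centrosome kinase Nek2 at -1.33. Cenpa, the histone variant of centromeres, was at -1.39 and the chromosome motor Kif4 at -1.45. The limma adjusted p of these 6 genes lay between 0.158 and 0.192, and between 0.0365 and 0.044 without L18.

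DNA replication followed. Of 35 genes tested, 34 had a negative log2 fold change and 15 were lower at an unadjusted p under 0.05 (42.9%), with a median of -0.92. None was called with all mice or without L21, and 21 were called lower without L18, as were 3.83% of all genes. Cdc45, part of the replicative helicase and well above background on 3 of 5 C451A-ERα arrays, was at -1.15 (-2.08 with the background-subtracted signal) and Ccne1, the cyclin that starts S phase, at -1.06. Rrm2, which makes deoxyribonucleotides, was at -1.53 and the helicase subunit Mcm5 at -1.46.

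The mean deviation of the mitosis genes from the mean of the 10 mice was 0.69, 0.18, 0.92, 0.91 and 0.83 in WT mice and -1.21, 1.12, -0.99, 0.04 and -2.49 in C451A-ERα mice. The C451A-ERα mice thus ranged from the lowest to the highest of all 10, and within slides the C451A-ERα mouse was below its WT partner except for L18 on slide 2. L18 also had the highest mean deviation of the basal markers (0.74) and of the epidermis markers (0.97) and the lowest of the luminal hormone-sensing markers (-0.54) among the 10 mice. For the luminal progenitor markers L18 was the highest as well (0.51), followed by L21 (0.32). The part of these cell markers in the cell cycle values was not tested. Under E2 alone the median log2 fold change of the mitosis list was 0.08 and that of DNA replication 0.09. D-type cyclins and inhibitors of cyclin-dependent kinases had 4 of 16 lower and none higher at an unadjusted p under 0.05, with none called. The share lower was 25.0%, against 10.4% of all genes.

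**Figure D5:**
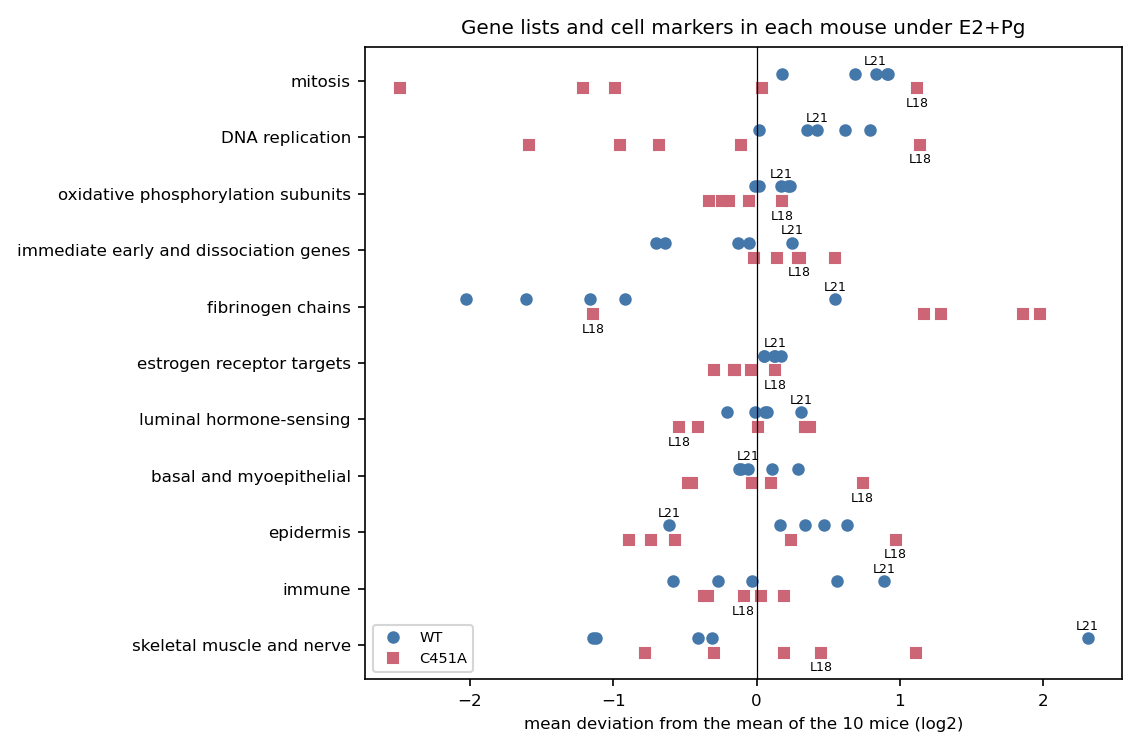
Mean deviation (x axis, log2) of the genes of each list (y axis) from the mean of the 10 mice, for each WT (circles) and C451A-ERα (squares) mouse under E2+Pg, with L21 and L18 named. For mitosis L18 lies at 1.12, above all WT mice, and for fibrinogen chains at -1.14, among the WT mice, where L21 lies at 0.55.

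Promoters of cell division genes are shown for the CCAAT box, which is frequent before cell cycle genes. Capitals mark CCAAT on either strand in the 250 bases before the start (RefSeq, GRCm38.p6).
Ube2c, chr2:164769679-164769928, plus strand: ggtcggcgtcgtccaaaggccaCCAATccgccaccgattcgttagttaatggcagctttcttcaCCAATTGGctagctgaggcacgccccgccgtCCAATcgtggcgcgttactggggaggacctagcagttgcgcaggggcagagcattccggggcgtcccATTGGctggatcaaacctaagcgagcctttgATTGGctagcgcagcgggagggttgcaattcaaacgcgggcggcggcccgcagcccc
Nek2, chr1:191821223-191821472, plus strand: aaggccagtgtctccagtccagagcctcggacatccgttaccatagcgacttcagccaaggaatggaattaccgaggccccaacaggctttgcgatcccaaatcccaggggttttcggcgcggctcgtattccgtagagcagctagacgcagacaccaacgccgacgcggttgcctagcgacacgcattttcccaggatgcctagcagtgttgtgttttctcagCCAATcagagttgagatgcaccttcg
Cenpa, chr5:30666636-30666885, plus strand: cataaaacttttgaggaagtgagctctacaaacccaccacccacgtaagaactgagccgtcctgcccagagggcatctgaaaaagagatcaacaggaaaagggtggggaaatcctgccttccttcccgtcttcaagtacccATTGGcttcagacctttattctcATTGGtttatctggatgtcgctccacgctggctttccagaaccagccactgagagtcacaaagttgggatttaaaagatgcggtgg
Mcm5, chr8:75109259-75109508, plus strand: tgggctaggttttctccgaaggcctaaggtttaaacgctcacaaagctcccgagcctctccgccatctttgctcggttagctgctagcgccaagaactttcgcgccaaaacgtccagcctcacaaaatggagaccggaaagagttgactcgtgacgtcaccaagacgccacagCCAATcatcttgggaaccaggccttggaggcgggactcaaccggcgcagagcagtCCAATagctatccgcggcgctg
Ube2c holds 6 matches, of which a pair overlaps on opposite strands, Cenpa and Mcm5 hold 2 each and Nek2 holds 1. Of 40 promoters of the 36 mitosis genes that the table holds, 30 have a CCAAT (75%), as do 21 of 34 promoters of 29 DNA replication genes (61.8%), 34.9% of the promoters of all genes tested and 33.8% of all promoters of this length. The letters TTTGAA or TTCGAA of the cell cycle homology region were in 32.5% of the mitosis promoters and in 17.1% of all promoters.

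Immediate early genes, which cells switch on within minutes of a growth signal and also during the dissociation of tissue, had a higher mean in C451A-ERα LCs. Of 30 tested, none had a lower mean and 13 were higher at an unadjusted p under 0.05 (43.3%, against 7.97% of all genes). The median log2 fold change was 0.48, and none was called. Zfp36, a protein that shortens the life of cytokine mRNAs, had 12.39, 12.33, 11.58, 11.59 and 13.49 in WT mice and 13.29, 12.99, 12.75, 13.13 and 12.90 in C451A-ERα mice. WT mouse L21 was the highest of all 10, and the other WT mice lay below all C451A-ERα mice. This gave a log2 fold change of 0.74 (standard error 0.27, limma adjusted p = 0.206, and 0.0182 without L21). Junb, a subunit of AP-1, was at 0.53, and Ier5 and Ier2, small nuclear proteins, at 0.65 and 0.45. The highest WT and the lowest C451A-ERα mouse were both at 14.71 for Ier5 after rounding, within 14.09 to 15.32 over all mice. The AP-1 subunits Fos (0.96) and Fosb (1.04) and the zinc finger protein Egr1 (0.83), named after their values were seen, were also among the 13.

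The mean deviation of the list was -0.05, -0.13, -0.64, -0.70 and 0.25 in WT mice and 0.55, 0.30, -0.02, 0.14 and 0.29 in C451A-ERα mice, higher in the C451A-ERα mouse on all 5 slides (0.04 to 0.84). The median was 0.49 without L18 and 0.60 without L21. The mean deviation of the muscle and nerve markers was high in L21 (2.31) and L56 (1.11) and low in L44 (-1.12) and L47 (-1.14). That of the immune markers was high in L21 (0.89) and low in L44 (-0.58). Other mice differed from this: L63, at 0.29 for the immediate early genes, had -0.3 for muscle and nerve and -0.37 for immune markers. L57, at -0.05 for the immediate early genes, had 0.56 for immune markers. The part of these markers in the immediate early values was not tested. Under E2 alone the median of the list was -0.03.

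The promoters of Cebpb and Junb are shown for the letters TGACG, the core of the element through which cAMP acts on such genes, with capitals on either strand.
Cebpb, chr2:167688665-167688914, plus strand: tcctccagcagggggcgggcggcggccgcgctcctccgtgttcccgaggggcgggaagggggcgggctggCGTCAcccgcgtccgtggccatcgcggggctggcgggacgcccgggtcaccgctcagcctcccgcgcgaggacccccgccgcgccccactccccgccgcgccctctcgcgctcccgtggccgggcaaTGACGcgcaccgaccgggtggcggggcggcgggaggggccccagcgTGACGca
Junb, chr8:84978749-84978998, minus strand: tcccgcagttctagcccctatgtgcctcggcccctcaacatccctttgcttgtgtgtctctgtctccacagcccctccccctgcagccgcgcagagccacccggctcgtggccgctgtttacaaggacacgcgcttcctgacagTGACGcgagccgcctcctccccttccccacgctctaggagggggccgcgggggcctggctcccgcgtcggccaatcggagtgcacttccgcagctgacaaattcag
Cebpb holds 3 matches and Junb 1. Of 29 promoters of 25 immediate early genes in the table, 15 hold TGACG (51.7%), against 24.2% of the promoters of all genes tested and 17.8% of all promoters. These matches describe the letters and do not show that a factor binds.

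Subunits of oxidative phosphorylation differed little in size but mostly in 1 direction. Of 37 tested, 36 had a negative log2 fold change, with a median of -0.24. At an unadjusted p under 0.05, 11 were lower (29.7%, against 10.4% of all genes) and none was higher. Ndufa1, a subunit of complex I, had 13.67, 13.36, 13.42, 13.73 and 13.15 in WT mice and 12.88, 13.23, 12.77, 13.04 and 12.86 in C451A-ERα mice. L18, the highest C451A-ERα mouse, lay just above L21, the lowest WT mouse. The difference of means was -0.51 on the log2 scale (standard error 0.13, limma adjusted p = 0.115). Cox7c and Cox6a1 of complex IV were at -0.48 and -0.31. For Cox7c the WT mice lay between 12.97 and 13.14 and the C451A-ERα mice between 12.31 and 12.92. In mean deviation L18 (0.18) lay among the WT mice (-0.01 to 0.23), and the other C451A-ERα mice lay between -0.33 and -0.05.

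The remaining lists are given by their counts at an unadjusted p under 0.05, beside 10.4% of all genes lower and 7.97% higher, and none of their genes was called. Hypoxia and glycolysis had 9 of 27 lower and 3 higher, axon guidance 8 of 41 lower and 4 higher, and Notch signaling 4 of 20 lower and 1 higher. The IGF axis had 3 of 15 lower and 4 higher, and cholesterol and fatty acid synthesis 3 of 30 lower and 4 higher. JAK-STAT kinases and SOCS genes had 3 of 25 lower and 2 higher, the unfolded protein response 3 of 24 and 2, the interferon response 2 of 36 and 3, and integrins, cadherins and desmosomes 3 of 31 and 2. These lower shares lay between 5.56% and 33.3%, and those of the cholesterol list (10.0%), the integrins (9.68%) and JAK-STAT (12.0%) were near that of all genes. Milk and alveolar genes had 0 of 19 lower and 2 higher, MHC class II genes 1 of 10 lower and none higher, and transcription factors of the epithelial-mesenchymal transition 1 of 14 lower and 2 higher. Snai1 of the last list had 8.75, 8.98, 8.39, 9.33 and 8.35 in WT mice and 7.09, 7.76, 7.33, 7.11 and 10.25 in C451A-ERα mice. All C451A-ERα mice but L63 lay below the WT mice, and L63 lay above them. Its log2 fold change was -0.85 (standard error 0.46, limma adjusted p = 0.306).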

How the data were processed

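Each array held Cy3-labelled RNA of 1 mouse and was read with Agilent Feature Extraction 10.10.1.1. The deposited scanner files give each spot's intensity, and their probe coordinates are on mm9. The deposited value table holds log2 signals that the authors filtered, corrected for washing bath and labelling series and quantile normalized, and it served as an alternative. These batch variables are not in the labels and were not tested. Here log2 median intensity, with outlier spots left out, was quantile normalized over 19 arrays without background subtraction, which lowers the fold changes of dim genes. Of 56605 probes, 31841 were kept for lying well above background in 4 or more arrays, and the brightest per gene stood for 20665 genes. No spot was saturated (0 on every array), the upper quartile of signal was 248.5 to 490 and 26471 to 31258 probes per array were well above background. The number of arrays limits the precision.

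The means of the 4 groups were fitted with limma 3.58.1 (R 4.3.3), a two-sided test, adjusted by the Benjamini-Hochberg method over all genes. Called genes differed by more than 1.5-fold with an adjusted p below 0.05. The 9 arrays of E2 mice entered the normalization, the filter on probes and the estimate of the spread (15 residual degrees of freedom), and gave the E2 and interaction values. The script was tested on simulated data. Slide and scan coincide. Replicate numbers were given in accession order and pair nothing.

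Named were the genes called, the 12 lower and 10 higher genes without overlap and with the lowest p, 19 tested genes that the paper names for this comparison or its PCR panel, and up to 4 members (6 for cell cycle lists) with the lowest p of each list described, 104 in all. A few of these are not reported here. Others are said to be chosen after their values were seen. The comparison, the lists and the rules were chosen with earlier results of these data known, so lists carry no test. Promoters are the 250 bases before each RefSeq start on GRCm38.p6. Alternatives were other signals, filters, normalizations and fits, and leaving out mice.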

Additional observations from a re-analysis of the deposited data

Results flagged for a closer look

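Of 294 groups of 5 mice examined, for 147 genes and lists, 22 held a mouse whose gap to the nearest other mouse was more than 0.71 of the group's range. Chance alone gives this in about 1 in 20 groups. The groups share mice and genes, so the flags are not independent.

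WT mouse L21 accounts for 8 of them. Its log2 signal was the lowest of the WT mice for Clca1 (8.33), Il18 (7.19), Klk6 (6.27) and Pcsk1 (5.81), and the highest for Fgf1 (9.43) and Fgg (13.05). Its mean deviation was the lowest for the unfolded protein response (-0.3) and the highest for skeletal muscle and nerve markers (2.31).

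C451A-ERα mouse L18 was the lowest of its group for Fgb (10.53) and the highest for Vmn1r32 (5.93), and its mean deviation was the lowest for the EGF family (-0.42) and the fibrinogen chains (-1.14). C451A-ERα mouse L63 was the highest of its group for Cebpb (14.48), Epgn (8.71), Per1 (13.28) and Snai1 (10.25), and in mean deviation for axon guidance genes (0.18).

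The other flags were spread over single mice. WT mouse L57 was the highest for Bmpr1b (9.02) and in mean deviation for the channel list that holds Asic2 (0.16). WT mouse L47 was the highest for Cox7c (13.14) and the lowest for Stat5a (11.03). C451A-ERα mouse L56 had the lowest mean deviation for transcription factors of the epithelial-mesenchymal transition (-0.3).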

How the results depend on the processing

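The number of genes called, 1 with all mice, was 6 with only the 10 arrays in the fit and 6 with only these in normalization, filter and fit as well. It was 0 with the processed signal, 3 with normexp, 26 (24 lower) with the authors' value table, 0 where probes had to be well above background on all arrays, and 2201 (1058 lower, 1143 higher) with array weights. Those weights were 0.302 for L18 and 0.498 for L21, and lower still for the C451A-ERα mice L4 (0.247) and L27 (0.292) on E2 alone. Without L18 and L21 together, an alternative chosen after seeing the data, it was 863. Leaving out each mouse in turn gave 1 to 1096 genes. The number at an unadjusted p under 0.05 was 7095 with array weights, 5816 without both mice, and 2238 to 6439 with 1 mouse left out. Genes without overlap numbered 3896 without both mice and 598 to 2853 with 1 mouse left out, counts that grow with fewer mice. The slide as a block, the intensity trend, no filter on dim probes and the mean of all probes each left the count of calls within 1.5 times. Replicate numbers pair no mice, and the pairing by slide (5 pairs), fitted as a block, gave 1 call and 3265 genes at an unadjusted p under 0.05.

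The sign changed for Fgl1 with the mean of all probes (-0.52), for Areg without L56 (-0.05) or L53 (-0.01), within a range of -0.05 to 0.51 with 1 mouse left out, and for Stat5a without L18 (-0.06, range -0.06 to 0.3) or without L18 and L21 (-0.02). Of 946 list medians under alternatives, 10 moved by more than the spread. The cause of these changes was not tested.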
